A study of Homo sapiens with 6 samples.

Results

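The 39 genes described here encode proteins of the nucleolus, the machinery of ribosomal RNA processing and RNA polymerase I with its factors. They were taken by symbol from a fixed list, and all 39 had a row among the 34675 genes of the deposited comparison. The list was chosen with earlier results of these data known. RNA was sequenced from U2932, a human line of diffuse large B cell lymphoma origin. In 3 samples the cells carried a short hairpin RNA directed at PRDM11, and in the other 3 a scrambled one. Cells of both groups were infected and then kept under puromycin for 3 days. The knockdown rests on 1 hairpin construct, and the labels do not say whether samples of a group were separate cultures, so a p-value speaks only of the spread among these 6 samples, which may be technical. The deposited means belong to conditions called A and B, which no label ties to a hairpin. Every ratio is therefore condition A over condition B, with no statement on which is the knockdown. A deposited ratio is one from the authors' deposited table, which divides B by A, with its sign turned.

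Ribosome production starts in the nucleolus, where RNA polymerase I transcribes a long precursor of the ribosomal RNAs. Small nucleolar ribonucleoprotein particles modify this precursor, and large assemblies of processing factors cut it and fold it into the small and the large subunit. The transcription factor MYC binds the promoters of many of these genes at a short sequence called the E-box and drives their expression in growing lymphocytes and in lymphoma. The name of the set refers to that known relation, and whether MYC drives these genes in U2932 was not tested.

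The E-box is the sequence that links these genes to MYC, so their promoters were searched for its core letters, CACGTG, which read the same on both strands. The RefSeq promoter table (build GRCh38.p14, 250 bases before to 50 bases after each gene's start) had an entry for 32 of the 39 genes, and 15 of these, or 46.9%, held the motif. Of 107 further ribosome biogenesis genes with an entry, 28 held it (26.2%). Of the 6138 genes with an entry and a mean as high as the lowest of the 39, 13.9% held it, and the share was 8.77% over all 27305 genes of the promoter set. A gene counted if any of its entries held the motif. The shares are a description and were not matched for base composition. The set is named for its relation to MYC, so its share is not independent of how the genes were chosen. The promoters of 4 genes that held the motif follow, 5′ to 3′ on the gene's strand, in lower case with the E-box in capitals. DDX21 had the lowest ratio between the conditions, NOP14 and NOP2 were among the highest 3, and FBL lay near 0. The entries of POLR1A, with the highest ratio, and of NPM1 and WDR12, with the next lowest, held no CACGTG and are not shown.
DDX21: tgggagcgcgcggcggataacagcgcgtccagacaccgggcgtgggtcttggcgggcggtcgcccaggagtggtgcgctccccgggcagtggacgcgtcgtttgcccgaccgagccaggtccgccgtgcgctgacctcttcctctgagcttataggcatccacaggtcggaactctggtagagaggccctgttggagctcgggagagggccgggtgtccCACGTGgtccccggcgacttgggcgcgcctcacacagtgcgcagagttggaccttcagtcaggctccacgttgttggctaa
NOP14: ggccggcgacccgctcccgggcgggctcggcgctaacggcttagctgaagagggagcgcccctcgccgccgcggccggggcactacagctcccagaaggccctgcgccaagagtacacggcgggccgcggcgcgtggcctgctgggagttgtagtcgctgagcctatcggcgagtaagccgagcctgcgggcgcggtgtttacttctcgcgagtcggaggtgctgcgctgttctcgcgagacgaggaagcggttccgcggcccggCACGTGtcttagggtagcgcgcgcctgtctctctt
NOP2: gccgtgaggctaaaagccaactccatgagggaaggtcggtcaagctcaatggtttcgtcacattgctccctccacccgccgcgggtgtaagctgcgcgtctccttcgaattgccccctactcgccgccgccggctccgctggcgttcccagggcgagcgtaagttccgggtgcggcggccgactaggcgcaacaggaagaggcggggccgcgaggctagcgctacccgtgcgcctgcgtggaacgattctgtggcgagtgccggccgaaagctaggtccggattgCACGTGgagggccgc
FBL: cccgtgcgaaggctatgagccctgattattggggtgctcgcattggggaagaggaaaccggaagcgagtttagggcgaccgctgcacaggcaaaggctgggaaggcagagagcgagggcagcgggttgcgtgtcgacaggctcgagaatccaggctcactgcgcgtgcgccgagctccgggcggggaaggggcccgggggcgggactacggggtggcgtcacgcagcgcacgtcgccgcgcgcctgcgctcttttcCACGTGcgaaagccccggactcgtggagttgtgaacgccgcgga
The E-box began 31 bases before the start in DDX21 (chr10:68956397-68956696, plus strand). It began at base 16 after the start in NOP14 (chr4:2963357-2963656, minus strand), at base 36 in NOP2 (chr12:6568242-6568541, minus strand) and at base 7 in FBL (chr19:39846330-39846629, minus strand). DDX21 has a second RefSeq promoter entry, which held no CACGTG. GAR1, GNL3 and LYAR, counted among the genes with the motif, also have an entry without it.

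Expression was read as normalised reads, that is, read counts divided by the authors' size factors. The deposited means allowed the whole reads behind 3 libraries per condition to be worked out, with size factors of 1.21, 1.03 and 0.768 in condition A, against 1.09, 1.05 and 0.951 in condition B. The recovered reads came to between 21791172 and 33664056 per library in condition A and between 36518621 and 43191912 in condition B, which is not the full depth because rows of high means are missing. Library values were recovered in all 6 libraries for 34 of the 39 genes. For NCL, DDX21, NOP56, NOLC1 and UBTF more than 1 split of the reads matched the mean of condition A, so only their means are given there. Above a mean of 1500, the split accepted is the only one with every library between 0.7 and 1.4 times the mean. PRDM11 itself had 268, 272 and 323 normalised reads in condition A, against 565, 516 and 545 in condition B. The 5 B cell markers used (MS4A1, CD79A, CD79B, PAX5 and CD74) summed to 341675 normalised reads in condition A, against 269711 in condition B, and of these CD79B was called higher in condition A in the authors' deposited table. The T cell, myeloid and fibroblast lists summed to at most 70.5 in either condition. The epithelial list summed to 1295 in condition A, against 1255 in condition B, nearly all of it EPCAM.

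The authors' deposited table (DESeq) called 0 of the 39 genes at an adjusted p under 0.05. It called 2.54% of all genes, 0.966% as higher and 1.57% as lower in condition A. Among the 8204 genes with a mean at or above the lowest of the 39, the called share was 5.24%. At an unadjusted p of 0.05, 3 of the 39 passed in the deposited table, NOP14 higher and NPM1 and DDX21 lower in condition A, against 9.61% of all genes and 19.3% of the 8204. A limma-voom test of the recovered reads called 1 of the 34 genes it could test, NOP14, against 9.16% of all 17048 genes tested and 10.6% of those at the same levels. The log2 ratios of the 39 genes, condition A over condition B, ran from -0.37 for DDX21 to 0.28 for POLR1A with a median of 0.04, against a median of 0.01 over the 8204 genes. Ratios above 0 numbered 23 and ratios below 0 numbered 16, but with the conditions scaled to equal total reads these counts became 13 and 26 and the median -0.03.

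The size of difference that could be resolved depends on the test. The standard error of the limma log2 ratio ran from 0.07 to 0.13 over the 34 genes, and all 34 of the 95% intervals lay inside a 1.5-fold difference in either direction. The farthest bound, 0.52 for PES1, is a 1.43-fold difference. DDX21, with the lowest deposited ratio (-0.37), is among the 5 genes without an interval, so these bounds do not cover it. The standard error implied by the deposited p differed from that of limma in both directions. It was 0.24 against 0.13 for PES1 and 0.06 against 0.10 for FBL. Where a ratio is near 0, as for FBL, the implied value is unsteady and does not measure precision. For WDR43 and BOP1, also near 0, it was 0.02 and 0.36, against 0.07 and 0.11 by limma. The interval held 0 for 29 genes, lay above 0 for NOP14, NOP2 and POLR1A, and lay below 0 for NPM1 and WDR12. The SD of the 39 deposited ratios was 0.15 on the log2 scale, and that of the 8204 genes as highly read was 0.24. Of those 8204 ratios 84.3% lay between the lowest and the highest of the 39. The smallest ratio that the authors' deposited table called among the 8204 genes had a size of 0.36, so only DDX21 reached the sizes at which calls were made. Together the 39 genes held 350070 normalised reads in condition A, against 350342 in condition B, or 0.799% and 0.837% of all normalised reads.

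**Figure D1:**
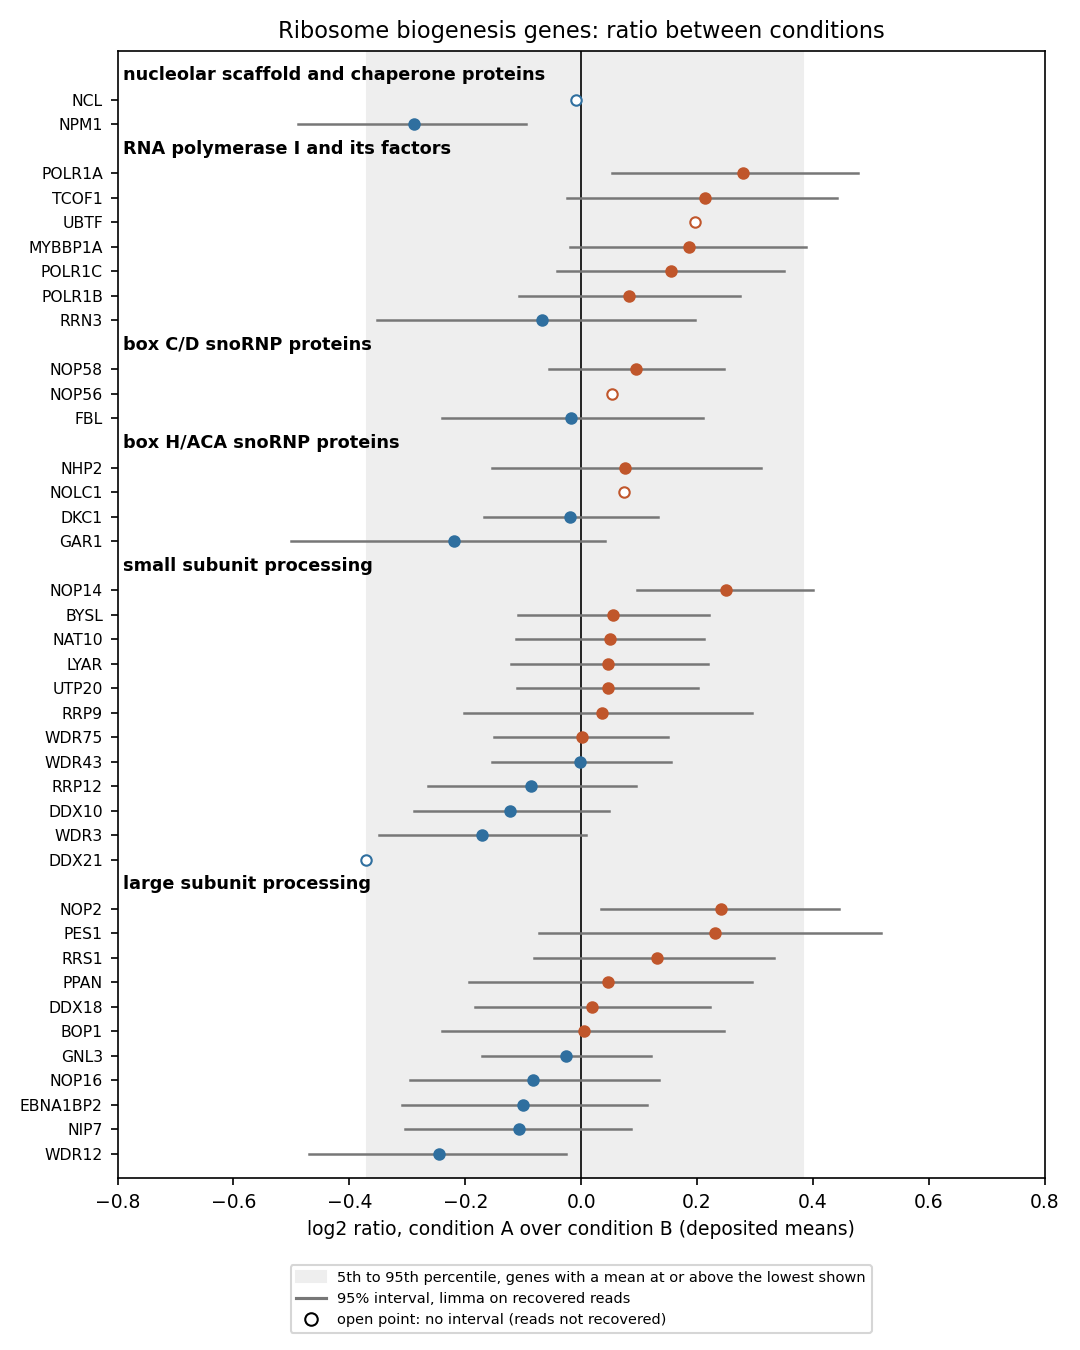
Log2 ratio of condition A over condition B for the 39 genes, by role. Points are the deposited ratios (orange above 0, blue below, open where library values of condition A were not recovered), bars are 95% intervals of the limma fit on 3 libraries per condition, and the grey band spans the 5th to 95th percentile of genes with a mean at or above the lowest of the 39 (-0.37 to 0.38). The intervals of 29 of 34 genes cross 0.

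**Figure D2:**
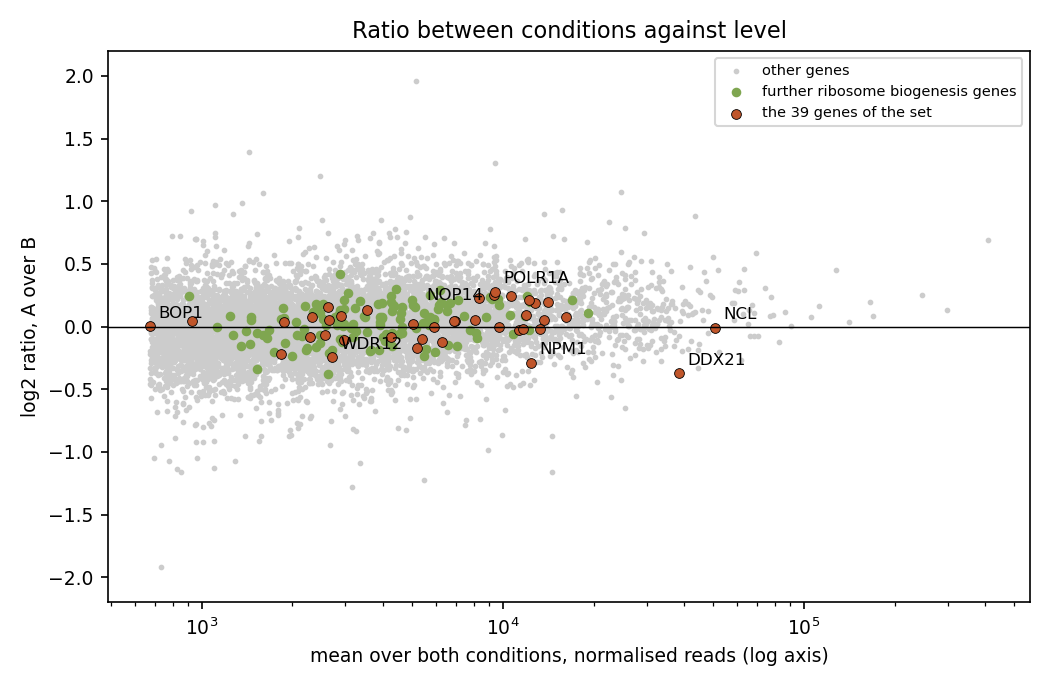
Deposited log2 ratio of condition A over condition B against the mean over both conditions in normalised reads (log axis). Orange points are the 39 genes, green points further ribosome biogenesis genes at the same levels, grey points the other genes with a mean at or above that of BOP1. The orange points lie between -0.37 and 0.28, inside the grey cloud.

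NCL and NPM1 are abundant nucleolar proteins that bind precursor ribosomal RNA and assembling particles. NCL (nucleolin, ENSG00000115053) is coded on chromosome 2, 232319905 to 232329064, in 15 blocks of the deposited track (hg19, as for all genes here). The authors' deposited table gave it means of 50635 normalised reads in condition A, against 50948 in condition B. The deposited log2 ratio was -0.01 (DESeq adjusted p = 1). The standard error implied by the deposited p was 0.05, which is no measure of precision for a ratio so near 0. The 3 libraries of condition B held 53621, 48840 and 50384. NCL was the most abundant of the set and one of those with a ratio nearest to 0. NPM1 (nucleophosmin, ENSG00000181163, chromosome 5, 170814953 to 170837566, 12 blocks) held 12540, 11038 and 9797 normalised reads in condition A, against 13552, 13418 and 13800 in condition B. All libraries of condition A lay below those of condition B, but they spread over a wide range while those of condition B were close together. The means were 11125 ± 1374 in condition A, against 13590 ± 194 in condition B (SD, n = 3 each), a limma log2 ratio of -0.29 with a 95% interval from -0.49 to -0.09 (limma adjusted p = 0.0671). The authors' deposited table gave a DESeq adjusted p of 0.326. Limma called NPM1 lower when library 1 of condition A was left out, with a ratio of the means of -0.38, whereas that ratio was -0.21 without library 3 of condition A. Many processed pseudogenes resemble NPM1, and reads may be split among them. The 40 with a row summed to 42.0% of the NPM1 mean in condition A, against 42.2% in condition B. The pseudogene NPM1P27, with 2639 normalised reads in condition A, against 3650 in condition B, was itself called lower there (DESeq adjusted p = 0.00943 in that deposited table of the authors).

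RNA polymerase I and its factors had ratios above 0 in 6 of 7 genes, beside 4333 of the 8204 genes at the same levels. Of the 15 further genes of this role in the wider pathway list, 5 lay above 0 and 9 below, with a median of -0.03. The 5 above 0 were POLR2E, POLR2F, POLR2H, POLR2K and POLR2L, subunits that RNA polymerase I shares with RNA polymerase II. ZNRD1 had no ratio, since its mean in condition A was 0. Of the 7 genes of the set the authors' deposited table called 0, beside 2.54% of all genes, and the median log2 ratio of these 7 was 0.19. With the conditions scaled to equal totals 6 of 7 were still above 0, with a median of 0.12, and of the 15 further genes 3 lay above and 11 below, with a median of -0.10. POLR1A, the largest subunit of RNA polymerase I (ENSG00000068654, chromosome 2, 86254549 to 86332899, 34 blocks), had the highest ratio of the 39. It held 9496, 9367 and 12012 normalised reads in condition A, against 8523, 8430 and 8481 in condition B. The libraries did not overlap, and library 3 of condition A was far above the other two. The limma log2 ratio was 0.27 with a 95% interval from 0.05 to 0.48 (limma adjusted p = 0.108), and the ratio of the means was 0.15 without library 3 of condition A, against 0.28 with it. POLR1B, the second largest subunit (ENSG00000125630, chromosome 2, 113299729 to 113333303), held 3195, 2971 and 2771 in condition A, against 2607, 2909 and 2927 in condition B. Its libraries overlapped, and the limma log2 ratio was 0.08 with a 95% interval from -0.11 to 0.27 (limma adjusted p = 0.563). POLR1C, a subunit shared with RNA polymerase III, had a deposited log2 ratio of 0.16.

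Among the factors that work with the polymerase, UBTF binds the ribosomal DNA and keeps its genes open. In the authors' deposited table UBTF (ENSG00000108312, chromosome 17, 42284555 to 42295597, 21 blocks) averaged 15073 normalised reads in condition A, against 13147 in condition B. The deposited log2 ratio was 0.20 with an implied standard error of 0.14 (adjusted p of DESeq = 0.855). The libraries of condition B held 14406, 12485 and 12549, a spread of about the size of the difference between the conditions. TCOF1, the treacle protein that joins UBTF at the ribosomal genes, had a deposited ratio of 0.21 and MYBBP1A, a nucleolar protein that binds the polymerase, 0.19. RRN3, the initiation factor also called TIF-IA, was the exception with -0.07. The 2 RRN3 pseudogenes with a row summed to 20.7% of its mean in condition A, against 20.8% in condition B, and reads may have been split among these copies.

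The box C/D particle methylates ribosomal RNA. The authors' deposited table called 0 of its 3 genes, beside 2.54% of all genes. Limma called 0 of the 2 it could test, beside 9.16% of all genes it tested. FBL, or fibrillarin, is the methyltransferase of the particle (ENSG00000105202, chromosome 19, 40325181 to 40336940, 9 blocks). FBL held 12186, 13046 and 14343 normalised reads in condition A, against 15483, 12320 and 12232 in condition B. The libraries overlapped fully, with one high library in condition B. The limma log2 ratio was -0.02 with a 95% interval from -0.24 to 0.21 (limma adjusted p = 0.939). The scaffold proteins NOP56 and NOP58 had deposited ratios of 0.05 and 0.10, and the 3 libraries of NOP58 in condition A, 11982 to 12975, lay just above the 11221 to 11798 of condition B.

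The box H/ACA particle converts uridine to pseudouridine in ribosomal RNA. DKC1, its catalytic subunit dyskerin, had a deposited log2 ratio of -0.02 and NHP2, a core subunit, 0.08. The 2 NHP2 pseudogenes with a row summed to 22.9% of the NHP2 mean in condition A, against 23.6% in condition B. Reads may have been split among these copies. GAR1, another core subunit, held 1929, 1824 and 1340 normalised reads in condition A, against 1969, 1957 and 2006 in condition B. The GAR1 libraries of condition A were all lower, mainly through library 3, and the 95% interval of the limma log2 ratio ran from -0.50 to 0.04 (limma adjusted p = 0.258). NOLC1, a chaperone of both kinds of particle, had a deposited ratio of 0.07.

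Several of these genes carry snoRNA genes in their introns. GENCODE 29 places 26 inside the 39 genes on the same strand, and 20 of them in 8 host genes had a row. None of the 20 reached 50 normalised reads in either condition or passed the threshold, beside 2.54% of all genes called. The lowest DESeq adjusted p of a snoRNA in the authors' deposited table was 0.643. That snoRNA was SNORD69, hosted by GNL3, for which the authors' deposited table has 25.6 normalised reads in condition A, against 13.5 in condition B.

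Small subunit processing was covered by 12 genes, 7 above and 5 below 0, or 1 and 11 with the conditions scaled to equal totals. DDX21, an RNA helicase that couples transcription by RNA polymerase I to processing (ENSG00000165732, chromosome 10, 70715982 to 70742565, 15 blocks), came nearest to the threshold in the authors' deposited table. There its means were 33648 normalised reads in condition A, against 43539 in condition B. The deposited log2 ratio was -0.37, the implied standard error 0.12 and the DESeq adjusted p 0.0673. The libraries of condition B lay close together at 42245, 43486 and 44887, and those of condition A were not resolved. With p adjusted over genes with a mean of at least 10, or of at least 100, in place of all rows, DDX21 was called lower and was the 1 gene of the 39 called, beside 6.68% and 8.96% of the genes so tested.

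NOP14, a structural protein of the small subunit processome (ENSG00000087269, chromosome 4, 2939943 to 2965046, 19 blocks), held 9913, 9987 and 10425 normalised reads in condition A, against 8844, 8304 and 8365 in condition B. Every library of condition A was above every library of condition B, and both conditions were tight. The means were 10108 ± 277 in condition A, against 8505 ± 296 in condition B (SD, n = 3 each), a limma log2 ratio of 0.25 with a 95% interval from 0.10 to 0.40 (limma adjusted p = 0.0476). The DESeq adjusted p in that deposited table of the authors was 0.422. With libraries scaled to the recovered totals limma called none of the 34 genes. NOP14 was called by limma without library 1 of condition B, and was lost when any other library was left out. For NOP14-AS1, an antisense gene that overlaps it, the authors' deposited table has means of 560 in condition A, against 423 in condition B, and reads of the 2 cannot be told apart if the counting ignored strand. UTP20, a large scaffold of the processome (ENSG00000120800, chromosome 12, 101674061 to 101779898, 62 blocks), held 7178, 6738 and 7227 in condition A, against 6633, 6835 and 7018 in condition B. The UTP20 libraries overlapped and the limma interval ran from -0.11 to 0.20.

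The other 9 small subunit genes had deposited ratios between -0.17 and 0.05. WDR43 and WDR75, which belong to the first complex to bind the precursor, had -0.00 and 0.00, RRP9, which binds the U3 snoRNA, 0.04, and BYSL, or bystin, 0.05. NAT10, which acetylates cytidines of ribosomal RNA, had 0.05 and the nucleolar growth regulator LYAR 0.05. WDR3 had -0.17, the helicase DDX10 -0.12 and the export factor RRP12 -0.09. The libraries of WDR3 and of DDX10 were all lower in condition A, yet both limma intervals held 0.

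Large subunit processing was covered by 11 genes, 6 above and 5 below 0, with a median of 0.01 in the authors' deposited table. With the conditions scaled to equal totals 3 lay above and 8 below, with a median of -0.06. NOP2, a methyltransferase of the large subunit RNA (ENSG00000111641, chromosome 12, 6666162 to 6677084, 17 blocks), held 10621, 11422 and 12530 normalised reads in condition A, against 10931, 9068 and 9237 in condition B. One library of condition B overlapped those of condition A. The limma log2 ratio was 0.24 with a 95% interval from 0.03 to 0.45 (limma adjusted p = 0.129). The 3 subunits of the PeBoW complex, which matures the large subunit, had different deposited ratios. PES1 had 0.23, BOP1 0.01 and WDR12 -0.24, with limma intervals from -0.07 to 0.52, from -0.24 to 0.25 and from -0.47 to -0.03. The differences between these ratios were not tested.

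WDR12 (ENSG00000138442, chromosome 2, 203745586 to 203776199, 13 blocks) held 2795, 2492 and 2143 normalised reads in condition A, against 2811, 2936 and 3056 in condition B. Its libraries just failed to overlap, since the highest of condition A was close to the lowest of condition B (limma adjusted p = 0.142). Limma called WDR12 lower when library 1 of condition A was left out, with a ratio of the means of -0.34, whereas that ratio was -0.15 without library 3 of condition A, against -0.24 as deposited. BOP1 (ENSG00000170727, chromosome 8, 145486123 to 145515052, 16 blocks) held 730, 599 and 698 in condition A, against 752, 645 and 623 in condition B, with full overlap (limma adjusted p = 0.988). The others had deposited ratios between -0.11 and 0.13, among them GNL3, or nucleostemin, with -0.03, the helicase DDX18 with 0.02, RRS1 with 0.13, NIP7 with -0.11, EBNA1BP2 with -0.10 and NOP16 with -0.08. PPAN had 0.05, and its gene lies in a read-through locus with P2RY11, where reads can be shared. Genes on the opposite strand overlap several others (EBNA1BP2, GNL3, MYBBP1A, NHP2, NIP7, NOP16, PES1, POLR1C, RRN3, RRP12, UBTF, WDR12 and WDR3), so their values are uncertain where the counting ignored strand.

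Levels between genes were compared per kilobase of coding sequence, as the deposited hg19 track gives it, for 37 genes. For PPAN and POLR1C the track holds under 80% of the coding length in GENCODE 29, and they were left out. For the other 37 it holds between 92.0% (NIP7) and 109% (PES1), with 92.3% for FBL. Ordered by the mean of both conditions, NCL was highest with 22995 normalised reads per kb in condition A, against 23137 in condition B. DDX21 followed with 14324 in condition A, against 18535 in condition B, then FBL with 14822 in condition A, against 14994 in condition B, and NPM1 with 12528 in condition A, against 15304 in condition B. BOP1 was lowest, with 292 in condition A, against 291 in condition B, followed by POLR1B with 836 in condition A, against 790 in condition B and by UTP20 with 844 in condition A, against 817 in condition B. By the track lengths the order of DDX21, FBL and NPM1 differed between the conditions, with FBL above DDX21 in condition A and NPM1 above FBL in condition B. The place of FBL above DDX21 depends on its shorter track length, since DDX21 and NPM1 have 100% of theirs. Whether neighbours differ was not tested. The range from BOP1 to NCL was 79.1-fold, against at most 1.43-fold at the farthest interval bound between the conditions among the 34 genes tested. DDX21 and NCL are not among these 34. BOP1 was also far below its complex partners PES1 and WDR12, at 4660 and 1952 per kb in condition A, against 3971 and 2312 in condition B. The gene ID under which BOP1 was counted matched no coding transcript of GENCODE 29. Whether its low level, on which the 79.1-fold range rests, reflects the hg19 annotation was not tested.

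**Figure D3:**
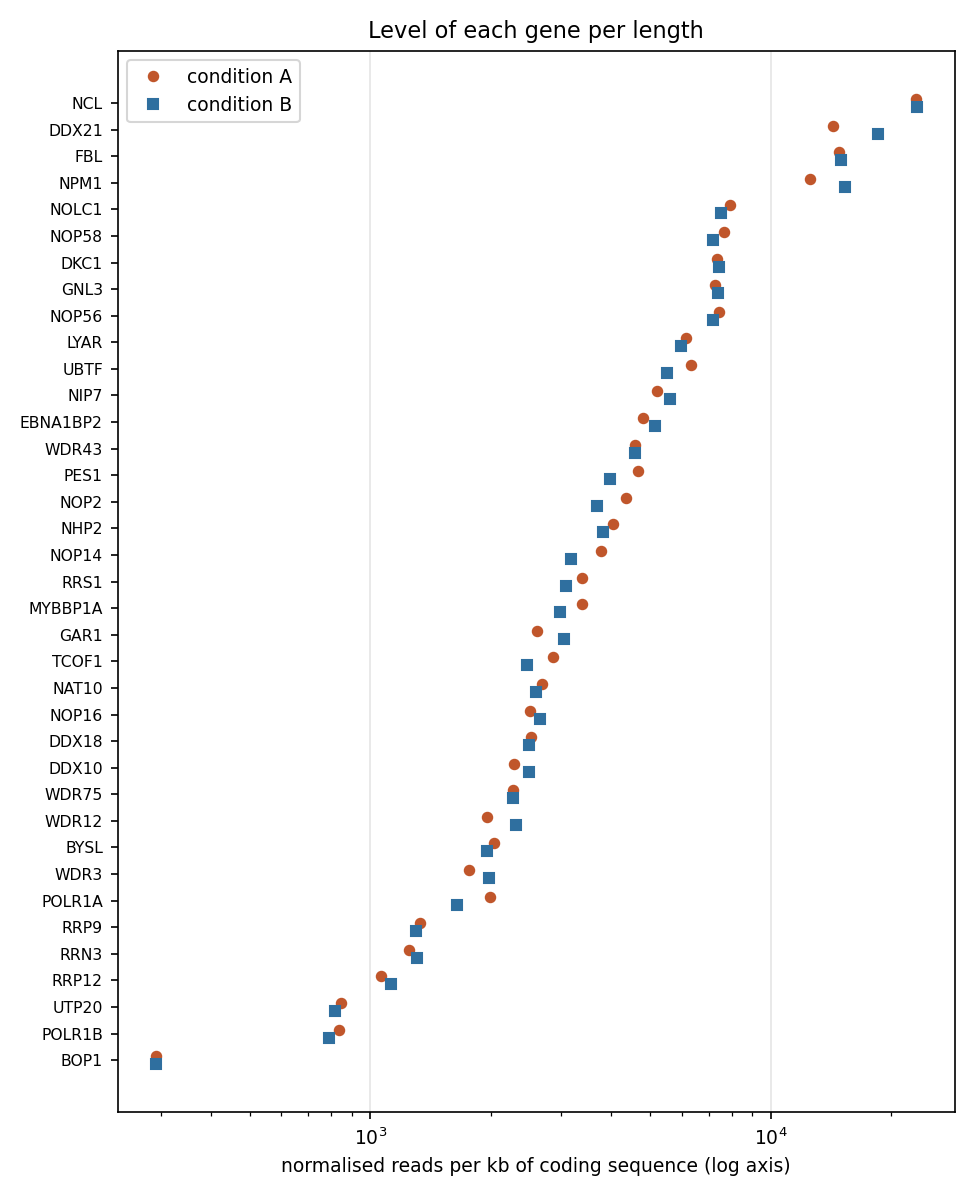
Normalised reads per kb of coding sequence (log axis) for the 37 genes with a full coding length, in condition A (circles) and condition B (squares), each the deposited mean of 3 libraries. NCL, DDX21, FBL and NPM1 stand above the others and BOP1 below them, in both conditions.

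**Figure D4:**
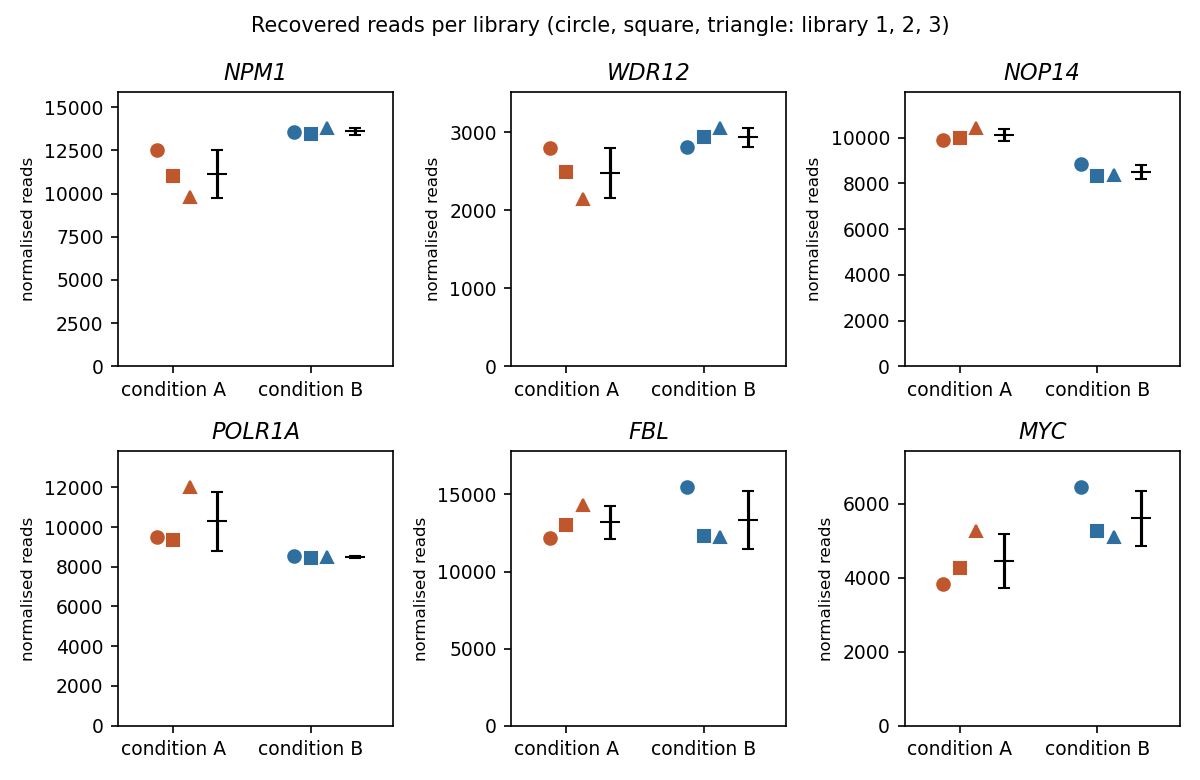
Normalised reads in each recovered library for 5 genes of the set and MYC, condition A left and condition B right. Symbols are libraries 1 to 3, and the bar is the mean with the SD of 3 libraries. NOP14 and POLR1A have all libraries of condition A above those of condition B, NPM1 and WDR12 all below, and FBL overlaps.

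Of the 34 genes with all libraries, 3 had every library of condition A above condition B (POLR1A, NOP58 and NOP14) and 5 had every one below (NPM1, GAR1, WDR3, DDX10 and WDR12). These 8 compare with 34.5% of the 7639 recovered genes at the same levels. Within a condition the SD was a median of 6.99% of the mean in condition A, against 6.18% in condition B. Library 3 of condition A was the highest of its condition for 18 of 34 genes and the lowest for 14, beside 45.3% and 44.5% of the 7639 genes. Library 1 of condition B was the highest for 25 and the lowest for 7, beside 49.4% and 41.2%. In 17 genes both of these libraries were highest, FBL, PES1, TCOF1 and NOP2 among them, and the median GC content of their longest coding transcripts was 56.3%. In 6 genes both were lowest (WDR3, WDR12, WDR43, DDX18, RRN3 and POLR1B), with a median GC content of 40.3%. Another 6 were lowest in library 3 of condition A and highest in library 1 of condition B (NOP58, DKC1, DDX10, BYSL, GNL3 and NIP7), with a median GC content of 43.7%, and UTP20 had the reverse.

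Over the genes with a GC value, Spearman's rho between GC content and the excess of library 3 over its 2 partners in condition A was 0.68, and 0.78 for library 1 in condition B (33 genes). The deposited log2 ratio itself had a rho of 0.49 with GC content over 38 of the genes and 0.33 over 7757 genes at the same levels. These correlations are across genes, which share their libraries, and are given as a description. Among the RNA polymerase I genes with ratios above 0, MYBBP1A (60.9%), TCOF1 (59.4%), UBTF (55.0%) and POLR1A (51.7%) had a GC content above the median of 48.1%, and POLR1C (46.8%) and POLR1B (44.8%) below it. WDR12 (40.2%), DDX21 (41.1%) and NPM1 (43.3%), the lowest 3 ratios, lay below it too. The part of GC content in the ratios was not tested.

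**Figure D5:**
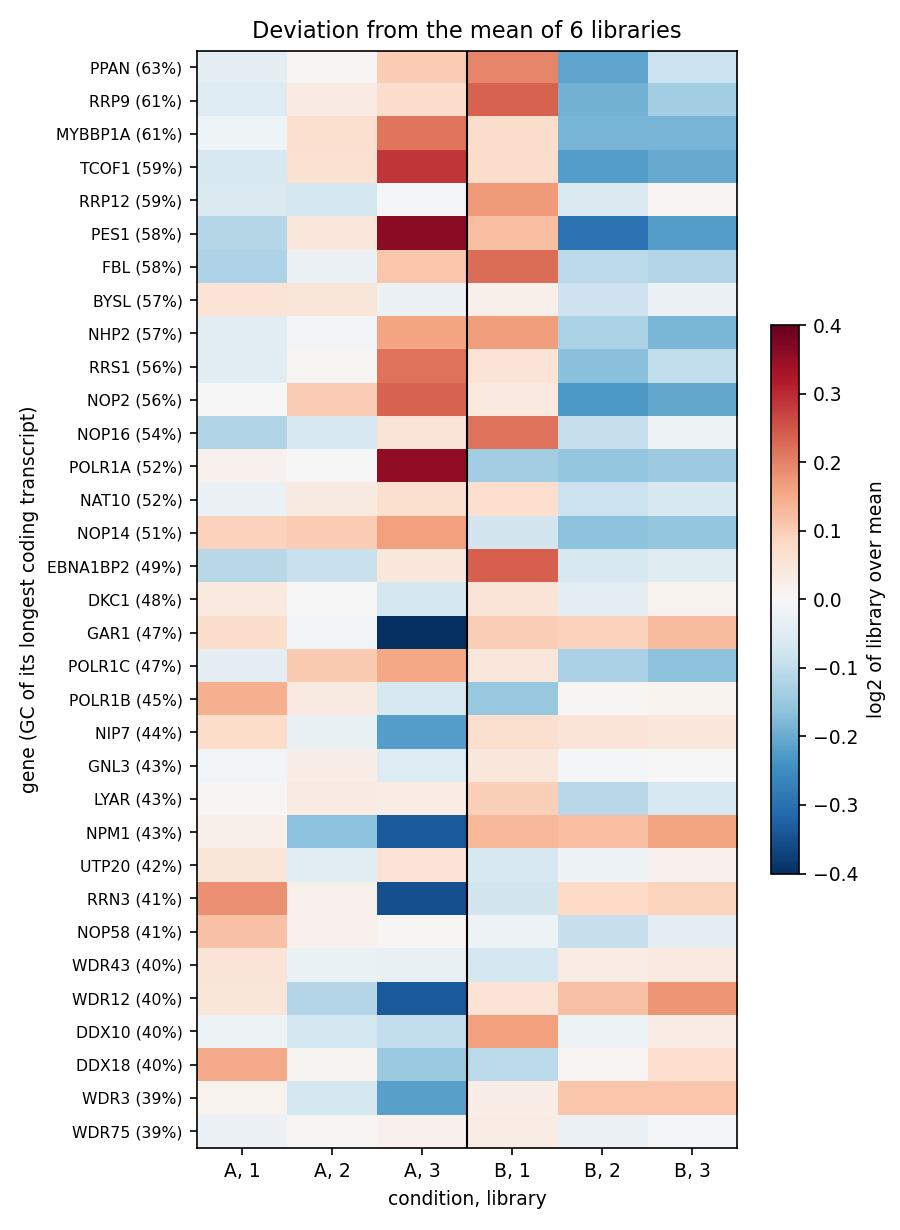
Log2 of each library over the gene's mean of 6 libraries, for the 33 genes with recovered reads and a GC value, ordered from GC-rich (top) to GC-poor (bottom). Columns are the libraries of condition A, then of condition B. Library 3 of A and library 1 of B are high for GC-rich genes, and library 3 of A is low for several GC-poor ones such as WDR12 and WDR3.

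The 15 genes with an E-box in the promoter window had a median deposited log2 ratio of 0.05 (range -0.37 to 0.25, with 9 above 0 and 6 below), and the 17 without it -0.01 (range -0.29 to 0.28, with 8 above 0 and 9 below). No test was made of this split. Its counts were not redone with equal totals, a scaling that moves every ratio by -0.07. MYC held 3827, 4253 and 5252 normalised reads in condition A, against 6449, 5253 and 5110 in condition B. Its library 3 of condition A overlapped condition B, and the limma log2 ratio had a 95% interval from -0.62 to -0.07 (limma adjusted p = 0.107). The authors' deposited table gave a log2 ratio of -0.33 (DESeq adjusted p = 0.398), and with 1 library left out the ratio of the means ran from -0.47 (without library 3 of condition A) to -0.22 (without library 1 of condition B). MAX, the partner that MYC needs to bind DNA, had a deposited ratio of 0.11. MXD4, which competes with MYC for MAX, was the 1 of 11 MYC network genes called in the authors' deposited table, beside 2.54% of all genes. It held 4462, 4745 and 5514 in condition A, against 3742, 3287 and 3181 in condition B, a deposited log2 ratio of 0.53 (DESeq adjusted p = 0.00571). All MXD4 libraries of condition A were above those of condition B. Limma called MXD4 (adjusted p = 0.0118) and also MXD1, another such competitor (adjusted p = 0.0436).

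Of 138 further ribosome biogenesis genes with a row, the authors' deposited table called 1 higher and 0 lower, beside 2.54% of all genes. Their median log2 ratio was 0.05, with 81 ratios above 0 and 56 below, or 63 and 74 with equal totals. By role, 0 of 15 RNA polymerase I genes, 0 of 12 snoRNP genes, 0 of 54 large subunit genes and 0 of 16 RNA trimming and exosome genes were called. The called gene was DIEXF, the human counterpart of a digestive organ expansion gene of zebrafish and 1 of 41 small subunit genes. DIEXF held 2978, 3300 and 3610 normalised reads in condition A, against 2454, 2444 and 2484 in condition B, a deposited log2 ratio of 0.42 (DESeq adjusted p = 0.03). All its libraries of condition A were higher, and those of condition B were nearly equal. Limma called DIEXF (adjusted p = 0.0176) and also TAF1A, a subunit of the promoter factor of RNA polymerase I, with 560, 478 and 459 in condition A, against 599, 680 and 701 in condition B (limma adjusted p = 0.0464). The share that limma called was 9.16% over all genes it tested. Without library 2 of condition A, or library 2 or 3 of condition B, limma called 0 of the 134 genes it tested, and without library 3 of condition A it called DIEXF and not TAF1A.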

How the data were processed

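Gene expression was measured by RNA sequencing in 6 samples. STAR, HTSeq 0.5.4p5 and DESeq 1.14.0 on hg19 are named, without roles, per the submitters' processing notes; which annotation and strand setting were used is not given in the sources used here. Per the file headers, the deposited means are a signal, read counts divided by size factors. The deposited fold divides condition B by A and the deposited log2 ratio its logarithm, given here with its sign turned. The deposited p-value was adjusted by Benjamini-Hochberg over all rows, as recomputed. The deposited score of the hg19 track was not used, only its intervals. In the tables used, 0 columns held values per sample.

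Each mean is a sum of 3 whole counts with fixed weights, printed to 15 digits, so an integer search (numba 0.67.0) returned the reads. Means up to 60000 were searched. Above 1500, only libraries at 0.7 to 1.4 times the mean were accepted. Condition A had 1 solution for 34110 of 34642 rows (63.9% of its summed mean) and condition B for 34646 of 34650 (92.9%). Libraries are numbered by falling size factor and match no replicate number. The files hold no count column, so the reads were tested with limma-voom (limma 3.58.1, R 4.3.3) on 17048 genes with a mean of at least 10. Recovery and test were checked on simulated data. An implied standard error is the log2 ratio divided by the normal z of the deposited p, an approximation.

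The genes and lists were chosen with earlier results of these data known. Of the further pathway list, 138 of 140 symbols had a row. Given in full were the 3 highest and 3 lowest ratios, the 3 smallest p, the 3 highest and 3 lowest levels per kb, NCL, NPM1, FBL, POLR1A, UBTF, MYC, PRDM11 and called genes. Library values of GAR1 and NOP58 were added after their values were seen. One listed marker is not reported here. Bulk RNA cannot tell fewer cells of a kind from less RNA per cell.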

Additional observations from a re-analysis of the deposited data

How the results depend on the processing

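No paired analysis was possible because the deposited columns carry no replicate numbers. The count of called genes among the 39, 0 as deposited, was 1 (DDX21) with p adjusted over genes with a mean of at least 10 or of at least 100, where 6.68% and 8.96% of genes were called, and 1 (NOP14) of 34 with limma-voom, where 9.16% were. It was 0 with limma on libraries scaled to the recovered total (9.36%), and 0 to 2 with 1 library left out. The 2 were NPM1 and WDR12, without library 1 of condition A. Among the further pathway genes the count, 1 as deposited, was 1 and 2 under the same adjustments, 2 with limma under either scaling and 0 to 4 with 1 library left out. The share of all genes that limma called ran from 2.18% (library 2 of condition A left out) to 12.8% (library 1 of condition A left out). The median log2 ratio of the 39 genes was -0.030 with the means scaled to equal totals, against 0.04 as deposited. That scaling moved every gene by -0.07. With 1 library left out, the median of the 34 genes with all libraries was -0.00 to 0.05, a smaller set than the 39. PRDM11 stayed between -1.01 and -0.87. POLR1A was 0.15 and WDR12 -0.15 without library 3 of condition A, and FBL was 0.10 without library 1 of condition B. The cause of these shifts was not tested. All 39 genes had a mean of at least 674 normalised reads, and the tests rest on 3 libraries per condition.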
